A study of Bos taurus with 16 samples.

Results

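The genes described here are the nuclear genes for subunits of the mitochondrial respiratory chain and of ATP synthase. A row of the count table was taken when the study's own gene lists paired its Ensembl ID with a symbol beginning NDUFA, NDUFB, NDUFC, NDUFS, NDUFV, UQCR or ATP5, with COX4 to COX8, or with CYC1, and genes for assembly factors were left out. This gave 37 of 27607 gene IDs, of which 15 belong to complex I, 6 to complex III, 5 to complex IV and 11 to ATP synthase (complex V). The table itself carries no names, and the lists that name these IDs were selected by the study on the same libraries, so that 31 of the 37 genes have a name only because of a list for liver, 3 only because of a list for muscle (UQCRC1, ATP5F1A and ATP5F1B) and 3 because of lists for both organs. Fixed lists of these 4 complexes hold 81 subunits, so 44 of them have no name here.

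Electrons from NADH enter the respiratory chain at complex I, pass by way of ubiquinone to complex III and by way of cytochrome c to complex IV, where oxygen is reduced to water. Complexes I, III and IV pump protons out of the mitochondrial matrix, and ATP synthase lets them flow back to make ATP. Most subunits are encoded in the nucleus, a few of the core ones in mitochondrial DNA, and some subunits of complex IV exist as a liver type and a heart and muscle type.

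RNA was sequenced from the liver and the semitendinosus muscle, a hindlimb muscle, of 8 Holstein bull calves. IVP calves (n = 4, calves 3208, 3209, 5833 and 5841, aged 98 to 103 days) came from oocytes that were collected by ovum pick-up and then matured, fertilized and cultured in vitro, and MOET calves (n = 4, calves 3213, 3217, 3218 and 5932, aged 102 to 144 days) from embryos produced in vivo after superovulation; all embryos were carried by recipient cows, and all calves were reared in similar conditions. Parents were not balanced between the groups: all 4 IVP calves and MOET calves 3217 and 3218 shared 1 donor cow, and calves 3208, 3209, 3217 and 3218 were full siblings. IVP calves 5833 and 5841 were full siblings of each other, by a sire used for no MOET calf. MOET calves 3213 and 5932 came from another donor cow, used for no IVP calf, and each had a sire of its own. Each library is 1 organ of 1 animal, so the spread is that between animals.

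The libraries held 22758137 to 24667728 counts in liver and 23677247 to 25626474 in muscle, and these genes took 0.231% to 0.460% of the counts in liver and 0.720% to 1.07% in muscle. The authors had adjusted the counts for age, and the values of MOET calf 3213, the only calf outside 98 to 104 days, lay at the mean of the other MOET calves: over the 36 expressed genes of this set its median absolute log2 deviation from that mean was 0.0185 in liver, where counting error alone would give 0.0330, and 0.00801 in muscle, where it would give 0.0172. Means and SDs therefore cover 4 IVP and 3 MOET calves, while the edgeR and DESeq2 fits kept all 8 calves unless stated. Markers matched the labelled organs: the summed level of 4 hepatocyte genes was at least 8375 CPM in every liver library and at most 36.8 CPM in muscle, and that of 6 muscle fibre genes at least 125259 CPM in muscle and at most 1.02 CPM in liver. CPM is a gene's count per 1000000 counts of the library, here after TMM scaling within an organ.

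In liver, all 36 genes that passed the filter on low counts had a higher fitted level in the IVP group, by a median of 0.68 on the log2 scale, beside -0.0040 over all 14290 genes tested and 0.063 over the 7311 genes within the same range of mean CPM. Scaled by library totals instead, which moved the median of all genes to -0.16, 35 of the 36 were higher and ATP5F1A was at -0.064. By edgeR with the age term none reached an FDR under 0.05, as 0.035% of all genes did, and 33 had an unadjusted p under 0.05 with the higher level in IVP, beside 14.8% of all genes. Of the 3634 other genes with a name, 1103 had such a p and direction. In 32 of the 36 genes every IVP value exceeded every MOET value, which held for 16.3% of all genes. For the 33 genes named through a liver list these counts describe the values that chose them and support nothing. COX7B2, known as a testis form of a complex IV subunit and named through a methylation list, was the gene that did not pass, with at most 0.492 CPM in any liver library.

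**Figure D1:**
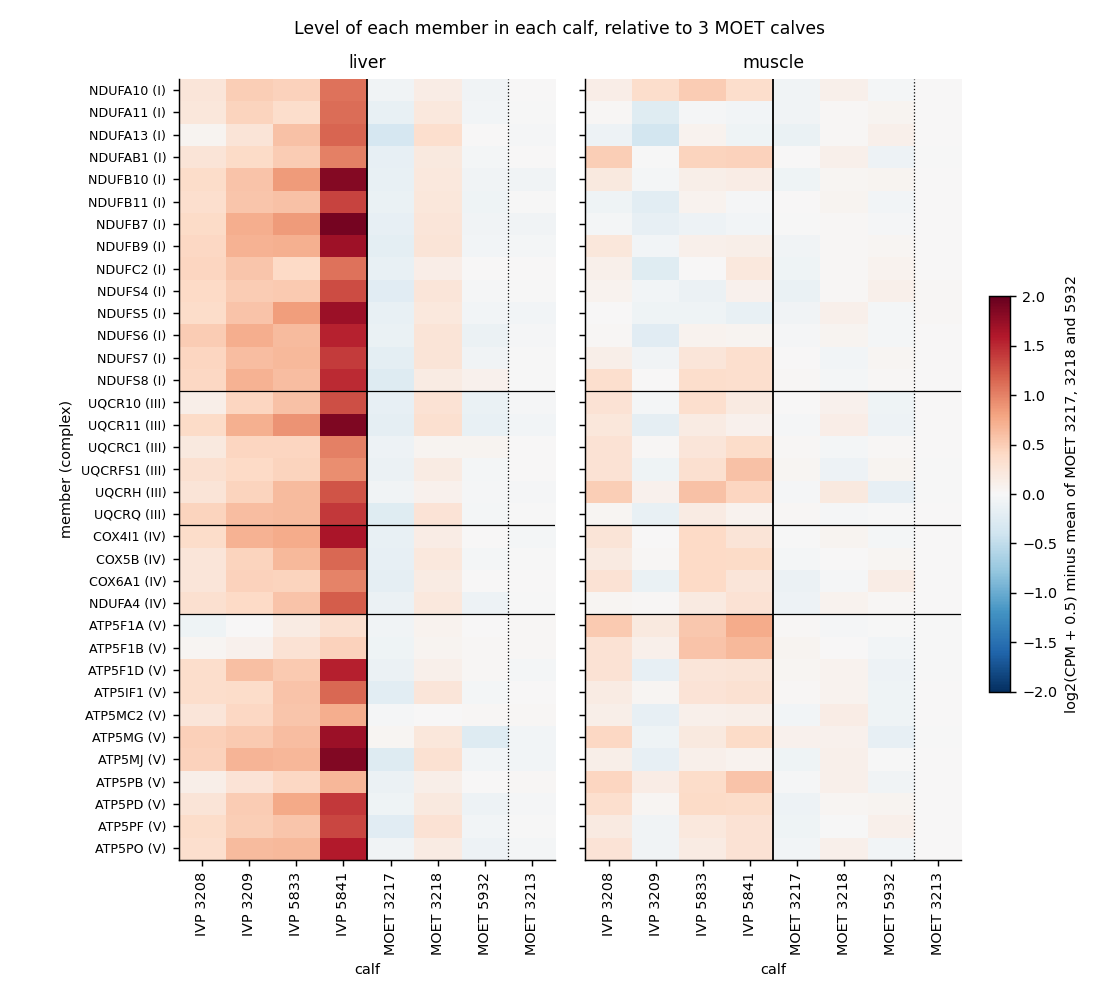
Level of 35 of the genes in each calf, as log2(CPM + 0.5) minus the mean of MOET calves 3217, 3218 and 5932, in liver (left) and muscle (right); rows are genes with their complex, and red is higher and blue lower. In liver the column of IVP calf 5841 is the darkest. In muscle most rows of IVP calf 3209 stand close to or below the MOET mean, while NDUFA10 and ATP5F1A are among those above it.

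The median liver difference was largest in complex I. NDUFB7, an accessory subunit on the intermembrane-space side, was at 30.5, 38.6, 42.45 and 88.95 CPM in IVP calves 3208, 3209, 5833 and 5841 and at 20.7, 27.5 and 21.99 CPM in MOET calves 3217, 3218 and 5932, with 22.1 CPM in calf 3213. All 4 IVP values were above the MOET values, and that of calf 5841 was more than 2 times the next highest. The log2 fold change was 1.04 ± 0.35 (SE), with an edgeR FDR of 0.127. The median of the 15 genes of complex I was 0.72. NDUFA13 was the 1 gene of complex I with overlapping groups in liver, with 8.27 to 18.5 CPM in IVP and 6.19 to 10.2 CPM in MOET calves.

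In complex III, UQCR11, a small subunit, was at 29.8, 37.7, 43.1 and 84.4 CPM in the livers of IVP calves 3208, 3209, 5833 and 5841 and at 20.0, 28.7 and 20.6 CPM in those of MOET calves 3217, 3218 and 5932. The lowest IVP value was only just above the highest MOET value, and the log2 fold change was 1.02 ± 0.35 (SE, FDR 0.127). In complex IV, COX4I1, which binds regulatory nucleotides, was at 156, 196, 202 and 377 CPM in the IVP livers and at 108, 133 and 122 CPM in the MOET livers. Here too calf 5841 lay far above the other IVP calves, and the log2 fold change was 0.90 ± 0.29 (SE, FDR 0.127). The remaining genes of both complexes, 5 and 3 in number, lay between 0.52 and 0.79.

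ATP synthase had the widest range in liver, from 0.099 to 0.96. ATP5MJ, a small membrane subunit, was at 63.2, 73.2, 73.0 and 166 CPM in IVP and at 38.1, 56.9 and 44.2 CPM in MOET livers, a log2 fold change of 0.96 ± 0.35 (SE, FDR 0.132). ATP5MC2, 1 of the genes that encode the proton-carrying c subunit, varied least among the MOET calves, with 107, 122, 135 and 152 CPM in IVP and 89.7, 91.3 and 92.9 CPM in MOET livers. Its log2 fold change of 0.49 ± 0.14 had the lowest FDR of the 36 genes, 0.125. The alpha and beta subunits, ATP5F1A and ATP5F1B, form the catalytic head of the enzyme, and their groups overlapped in liver.

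UQCRC1, ATP5F1A and ATP5F1B were named through muscle lists and were absent from the liver lists. Such absence favours small liver differences, so their liver values and the tests of them are a description. ATP5F1A was at 227, 244, 270 and 301 CPM in IVP livers and at 229, 254 and 243 CPM in MOET livers, a log2 fold change of 0.099 ± 0.136 (SE, edgeR FDR 0.632). ATP5F1B was at 322, 332, 382 and 431 CPM against 295, 326 and 318 CPM, a log2 fold change of 0.22 ± 0.14 (FDR 0.311). IVP calf 3208 lay below the MOET range in the first gene and within it in the second. UQCRC1, a core protein of complex III, was at 136, 160, 160 and 239 CPM in IVP livers, above the 110, 123 and 124 CPM of MOET livers, with a log2 fold change of 0.52 ± 0.20 (FDR 0.136). The exact two-sided permutation test of mean log2 CPM over 4 against 3 calves, which can give no p below 0.0286, gave p = 0.0571 for UQCRC1, 0.457 for ATP5F1A and 0.171 for ATP5F1B. In edgeR UQCRC1 had an unadjusted p of 0.0268, the only 1 of the 3 genes with such a p under 0.05, and none of the 3 passed the FDR over all genes.

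**Figure D2:**
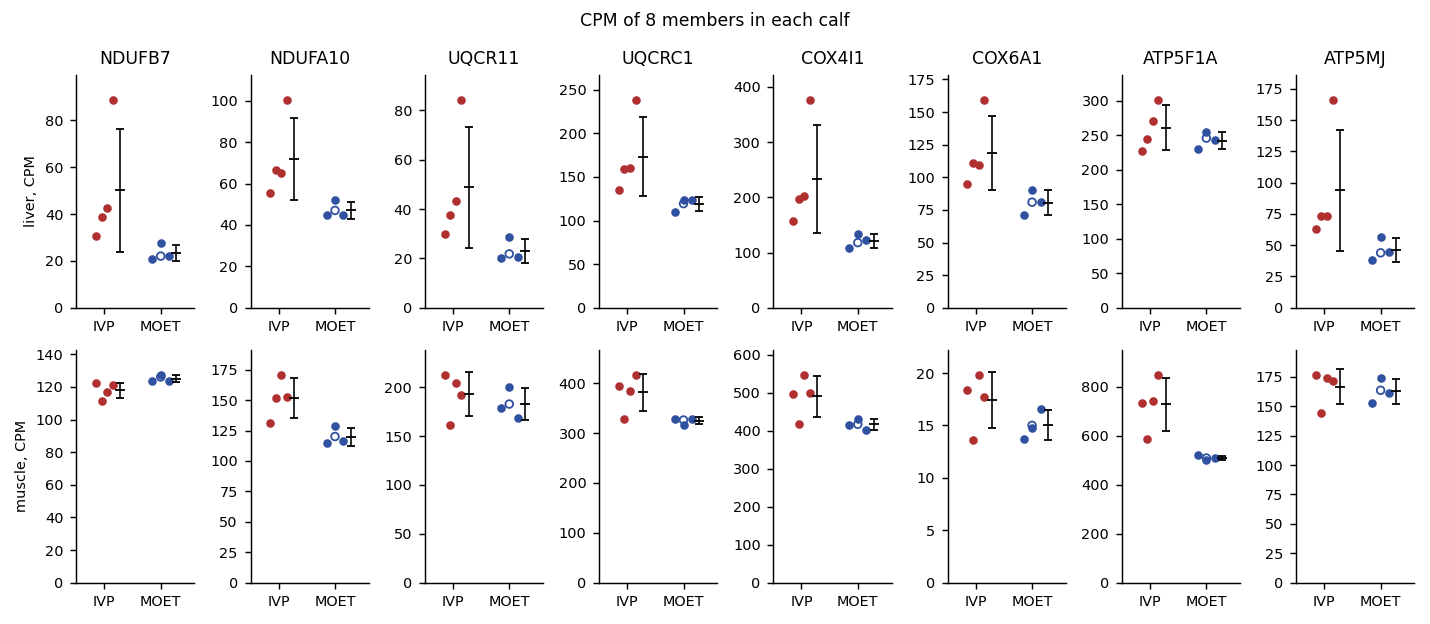
CPM of 8 genes in each calf in liver (top) and muscle (bottom), with each axis starting at 0; filled points are calves, the open point is MOET calf 3213, and the bars are the mean and SD of 4 IVP and 3 MOET calves. In liver 1 IVP calf, 5841, stands highest in every panel, and in muscle the ATP5F1A values of the IVP calves, 586 to 850 CPM, lie above those of the MOET calves, 503 to 520 CPM.

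How far the liver calves differed among themselves was seen in each calf's median over the 36 genes, given as log2 distance from the mean of the 3 MOET calves. It was 0.34 in calf 3208, 0.50 in calf 3209, 0.58 in calf 5833 and 1.29 in calf 5841 among the IVP calves, and -0.15 in calf 3217, 0.20 in calf 3218 and -0.045 in calf 5932 among the MOET calves. In calves 3209, 5833 and 5841 and in MOET calf 3218 all 36 genes lay above that mean, in calf 3208 35 and in calf 3217 1, and the 4 complexes had like medians in each animal, from 1.18 to 1.36 in calf 5841. The liver library of calf 5841 also had the lowest TMM factor, 0.867, and its part in the result was not tested. Without calf 5841 all 36 genes were still higher in IVP, with a median of 0.46, and 19 had an FDR under 0.05, as did 1219 of all 14500 genes. Between full siblings only, calves 3208 and 3209 against 3217 and 3218 without an age term, 35 of 36 were higher, with a median of 0.36 and none with an FDR under 0.05. The number called in liver depended on the age term, with 30 genes without it in edgeR, 13 in DESeq2 with it and 33 in DESeq2 without it. Of all 14290 genes these fits called 2998, 1568 and 4657. Without both calf 3213 and the age term edgeR called none, and without that calf but with the age term 27. The last fit called 2187 of all 14416 genes. Its age term rests mainly on calf 5841, at 98 days, as the others were 102 to 104 days old.

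**Figure D3:**
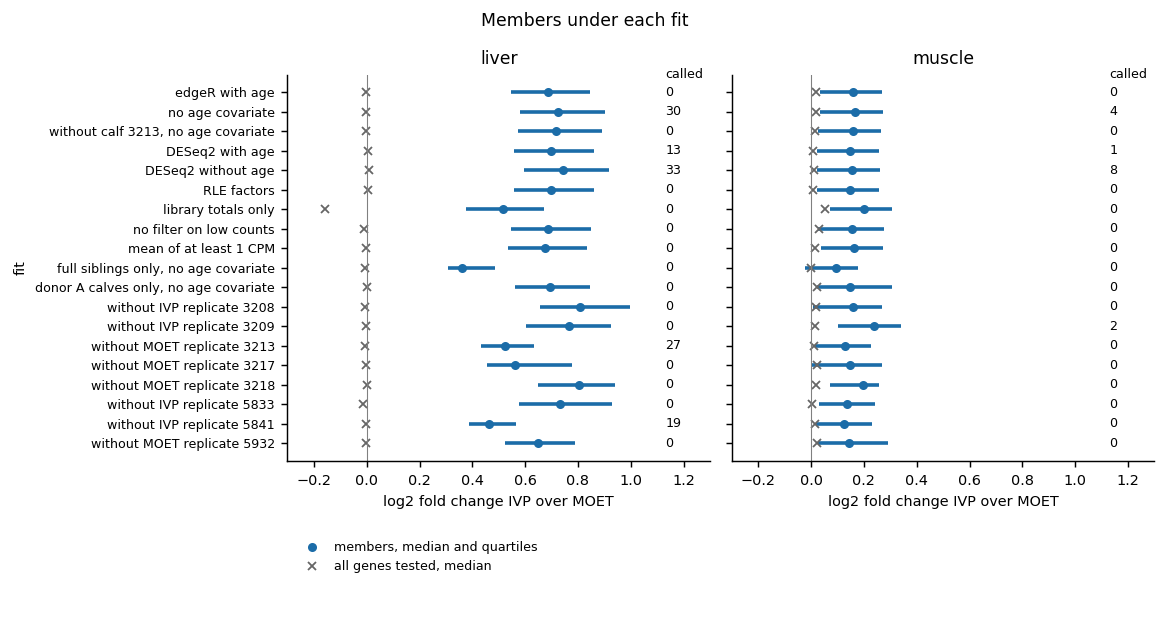
Median log2 fold change IVP over MOET (points, with quartiles as bars) of the genes under each fit, and the median of all genes tested (crosses), in liver and muscle; the number at the right is how many of the genes had an FDR under 0.05. The liver medians lie between 0.36 and 0.81 and those of muscle between 0.096 and 0.24.

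Other marker genes also differed between the livers, and their part in the result was not tested. The sum of APOA1, APOA2, APOB and TTR, hepatocyte secretory genes, was 12460 to 18416 CPM in IVP and 8375 to 10244 CPM in MOET calves, calf 3213 included. APOB ran the other way, with 823 ± 141 CPM in IVP (SD, n = 4) and 1323 ± 121 CPM in MOET calves (SD, n = 3). The sum of 4 fibroblast genes was 499 to 660 CPM in IVP and 794 to 843 CPM in MOET, and that of the endothelial genes CDH5 and VWF 76.9 to 95.1 CPM against 99.7 to 125 CPM. CD74, the 1 named leukocyte marker, was at 586 to 1035 CPM in IVP and 495 to 580 CPM in MOET livers. Such markers could be named only through the study's lists for these libraries. In whole tissue fewer cells of a type and less RNA per cell cannot be told apart.

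In muscle the differences were smaller and unequal. The fitted level was higher in IVP for 29 and lower for 7 of the 36 genes, with a median log2 fold change of 0.16, beside 0.018 over all 12854 genes tested and -0.038 over the 4084 genes within the same range of mean CPM. None had an FDR under 0.05 in edgeR, where 0.467% of all genes did, and 8 had an unadjusted p under 0.05 with the higher level in IVP, beside 11.4% of all genes. Of the 3342 other genes with a name, 581 had such a p and direction. The 4 IVP values exceeded the 3 MOET values for 6 genes, beside 10.4% of all genes, and were under them for NDUFB7 alone, beside 8.66%. Of the 30 expressed genes named through liver lists only, 3 had such a p (NDUFA10, UQCRH and ATP5PB), and their median log2 fold change was 0.14. That share is close to the background, but these 30 genes are the ones absent from the muscle lists. Such absence favours small muscle differences, so their count is a description. All 3 genes named through both organs had such a p.

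The 7 genes with the lower fitted level in IVP muscle were all accessory subunits of complex I: NDUFA11, NDUFA13, NDUFB11, NDUFB7, NDUFS4, NDUFS5 and NDUFS6, with log2 fold changes from -0.11 to -0.0037 and FDR of 0.616 or more; scaled by library totals, NDUFS4 and NDUFS6 were above 0 and the other 5 below. NDUFB7 was at 122, 112, 117 and 121 CPM in IVP calves 3208, 3209, 5833 and 5841 and at 124, 128 and 123 CPM in MOET calves 3217, 3218 and 5932, a log2 fold change of -0.086 ± 0.097 (SE, FDR 0.653). The groups, though apart, thus differed by less than 1 SE of the fit. Over the 12 accessory subunits the median was -0.011. Of the core subunits, NDUFS8, which holds iron-sulfur clusters, was at 0.26 and NDUFS7, which carries the last cluster before ubiquinone, at 0.15.

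NDUFA10, an accessory subunit named through liver only, was at 132, 152, 171 and 153 CPM in the muscle of IVP calves 3208, 3209, 5833 and 5841 and at 115, 129 and 116 CPM in that of MOET calves 3217, 3218 and 5932, a log2 fold change of 0.34 ± 0.12 (FDR 0.158). The groups were apart, though the gene did not pass the test over all genes.

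All genes of complexes III, IV and V had a higher fitted level in IVP muscle, with medians of 0.21, 0.22 and 0.19. The catalytic head of ATP synthase differed most. ATP5F1A was at 733, 586, 743 and 850 CPM in IVP muscle and at 520, 503 and 508 CPM in MOET muscle, a log2 fold change of 0.50 ± 0.15 (SE, FDR 0.120). ATP5F1B, the most abundant of the genes by CPM, was at 1138, 999, 1376 and 1445 CPM against 961, 927 and 892 CPM, a log2 fold change of 0.41 ± 0.16 (FDR 0.203). Both were named through muscle lists, so these values are a description. In ATP5PB, of the peripheral stalk and named through liver, the IVP calves were at 308, 255, 296 and 341 CPM and the MOET calves at 226, 246 and 217 CPM, with a log2 fold change of 0.38 ± 0.13 (FDR 0.155). The largest values of complexes III and IV were those of UQCRH, the hinge protein of complex III, at 0.40 ± 0.14 (FDR 0.160), and of COX5B, a zinc-binding subunit of complex IV, at 0.25 ± 0.13 (FDR 0.308).

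In muscle it was calf 3209 that lay apart from the other IVP calves. Its median over the 36 genes was -0.065 from the MOET mean, and those of IVP calves 3208, 5833 and 5841 were 0.21, 0.23 and 0.27, while the MOET calves lay between -0.024 and 0.040. Without calf 3209 the remaining IVP values exceeded every MOET value for 24 genes instead of 6. Removing the IVP calf with the lowest median makes such separation easier, so this count is a description. The median was then 0.24, and 2 genes, ATP5F1A among them, had an FDR under 0.05, as did 350 of all 13018 genes. Without the age term 4 genes had such an FDR in edgeR, ATP5F1A, NDUFA10 and ATP5PB among them, as did 1174 of all 12854 genes. In DESeq2 without the age term 8 did, as did 1619 of all genes. Without both calf 3213 and the age term none did in edgeR. Calf 5841, the highest in liver, was not apart from calves 3208 and 5833 in muscle.

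Fibre markers differed between the same muscles, and their part in the result was not tested. MYH7, the slow myosin heavy chain of oxidative fibres, was at 4998 to 14722 CPM in IVP and at 1862 to 3884 CPM in MOET calves, with a log2 fold change of 1.65 (FDR 0.085), and MYH2, of fast oxidative fibres, at 13663 ± 2219 CPM (SD, n = 4) and 7809 ± 825 CPM (SD, n = 3). The fast-fibre genes TNNC2, MYLPF and TNNT3 had log2 fold changes of -0.60, -0.46 and -0.37. The sum of 4 fibroblast genes was 808 to 1153 CPM in IVP and 1295 to 1624 CPM in MOET muscle, that of CDH5 and VWF 85.2 to 139 CPM against 71.8 to 79.1 CPM, and CD74 was at 215 to 442 CPM against 199 to 219 CPM. The sum of the 4 hepatocyte genes, low in muscle, was 3.17 to 36.8 CPM in IVP and 0.972 to 2.47 CPM in MOET muscle. No listed marker of adipocytes, cholangiocytes or erythroid cells could be named. Of the 6 slow-fibre markers fixed for this purpose only MYH7 could be named.

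The fitted difference between the organs, the log2 fold change in muscle minus that in liver, had a median of -0.65 over the 36 genes, beside 0.029 over all 15237 genes tested, and was below 0 for 34 of them, or for 31 when scaled by library totals. With 1 age slope common to both organs, 13 genes passed an edgeR FDR under 0.05, all with the lower effect in muscle, as did 12.2% of all genes. They were NDUFA11, NDUFB10, NDUFB11, NDUFB7, NDUFB9, NDUFC2, NDUFS4, NDUFS5 and NDUFS6 of complex I, UQCR11 and UQCRQ of complex III, and ATP5MC2 and ATP5MJ of ATP synthase, with differences from -0.49 to -1.24 and FDR from 0.017 to 0.041. Of the 3740 other genes with a name, 917 passed with the lower effect in muscle. The contrast between organs contains the liver effect through which the 13 genes were named, so their number is a description. With the calf as a block in the paired fit 14 passed: NDUFA13 (edgeR FDR 0.047) and NDUFS7 (FDR 0.037) were added and ATP5MC2 (FDR 0.059) was lost. With an age slope for each organ none of the 13 passed, and 1370 of all genes did instead of 3521. The fit with 1 slope counts calf 3213, whose values lie at the MOET mean, as a separate calf in both organs. Without that calf and the age term 3 genes passed, as did 1878 of all 15377 genes. Without calf 3217 none passed either, and without calf 5932 1 did. Scaled by library totals, 3 passed with the lower effect in muscle and 1 with the higher, and calls over all genes were 72.8% higher in muscle, beside 47.1% with TMM.

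ATP5F1A and ATP5F1B were the 2 genes whose effect was larger in muscle, by 0.37 ± 0.17 (SE, FDR 0.132) and 0.16 ± 0.19 (FDR 0.578). Scaled by library totals, the effects of NDUFAB1 and ATP5PB were also larger in muscle, and that of ATP5F1A passed, with an FDR of 0.033. ATP5PB had a nearly equal effect in both organs, with a difference of -0.030 ± 0.177. Across the 36 genes the liver and muscle log2 fold changes ran in opposite order, with Pearson's r of -0.55 and Spearman's rho of -0.49. The points share their libraries, and the genes were named through lists selected on these same liver or muscle values. ATP5F1A and ATP5F1B, with low liver and high muscle values, were named through muscle only. The coefficients, and the larger effect of these 2 genes in muscle, are therefore a description.

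**Figure D4:**
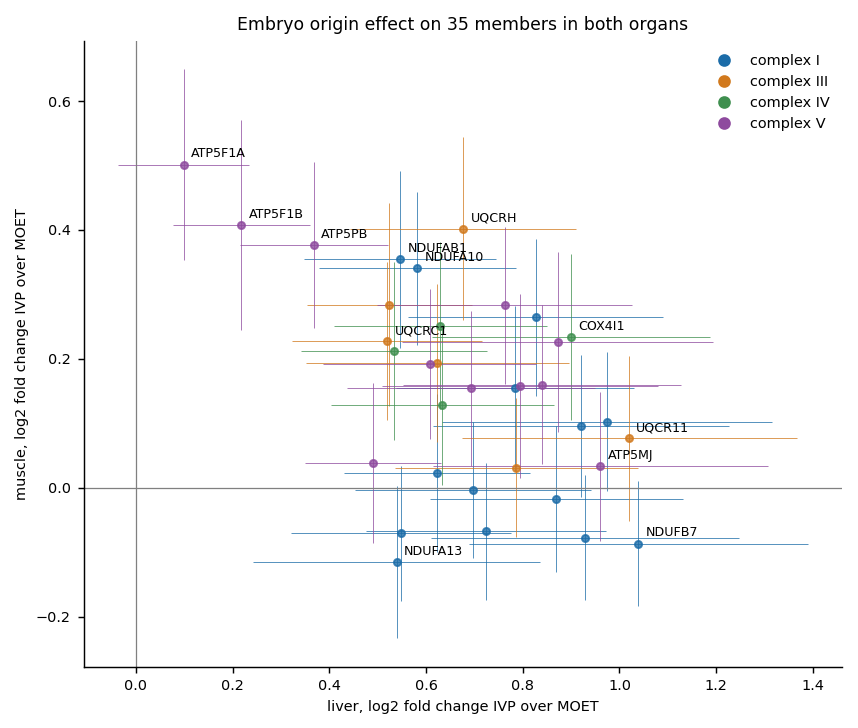
Log2 fold change IVP over MOET in liver (horizontal) and in muscle (vertical) for 35 of the genes, with bars of 1 SE from edgeR and colours for the complex. All points lie right of 0 for liver, 7 lie below 0 for muscle, all of complex I, and ATP5F1A stands alone with 0.099 in liver and 0.50 in muscle.

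The largest contrast of these genes was that between the organs themselves, which the naming did not use. In edgeR's fit over all 16 libraries 35 of the 36 genes were higher in muscle than in liver with an FDR under 0.05, where 39.9% of all genes were, and 1, COX6A1, was lower, where 44.7% were. The highest FDR among the 36 was 2.6e-07. The median log2 fold change, muscle over liver, was 2.13, beside -0.091 over all genes. In the 7 calves all muscle values lay above all liver values for 34 genes, beside 27.7% of all genes. The exception apart from COX6A1 was ATP5MG, whose liver value in calf 5841, 99.4 CPM, lay among the muscle values of 93.2 to 141 CPM. Scaled by library totals, the median was 1.46 and that of all genes -0.77, the calls over all genes were 28.1% higher in muscle instead of 47.1%, and the distance between the medians moved from 2.22 to 2.23, with the same counts of 35 and 1. For these comparisons CPM was scaled by TMM over the 16 libraries.

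Complex I ran from 1.67 for NDUFB11 to 3.25 for NDUFS7, complex III from 1.58 for UQCRQ to 3.18 for UQCR11, and ATP synthase from 1.48 for ATP5MG to 2.82 for ATP5IF1, the protein that inhibits ATP hydrolysis by the enzyme. NDUFS7 was at 43.3 ± 17.97 CPM in liver and 382 ± 36.6 CPM in muscle (SD, n = 7 calves), an 8.82-fold ratio of means. UQCR11 was at 29.9 ± 17.7 CPM in liver and 238 ± 24.2 CPM in muscle. ATP5IF1 was at 47.2 ± 15.98 CPM in liver and 317 ± 29.0 CPM in muscle. In complex IV, NDUFA4, first described with complex I and since placed in complex IV, was at 82.5 ± 29.8 CPM in liver and 531 ± 41.2 CPM in muscle, a log2 fold change of 2.77 ± 0.13 (SE).

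COX6A1, the liver type of subunit VIa, was the only gene with the reverse order. It was at 81.0 ± 23.3 CPM in liver, with a range of 55.8 to 127 CPM over the 7 calves, and at 20.7 ± 2.8 CPM in muscle, with a range of 17.4 to 24.5 CPM. The organs did not overlap, the ratio of means was 3.92-fold in favour of liver, and the log2 fold change, muscle over liver, was -1.92 ± 0.11 (SE, edgeR FDR 4.0e-11). It stayed below 0 with an FDR under 0.05 under all 18 other fits. The muscle type of this subunit was not among the named rows. Against embryo origin COX6A1 did not stand apart from its complex, with a log2 fold change of 0.53 ± 0.19 in liver (FDR 0.131) and 0.21 ± 0.14 in muscle (FDR 0.413).

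**Figure D5:**
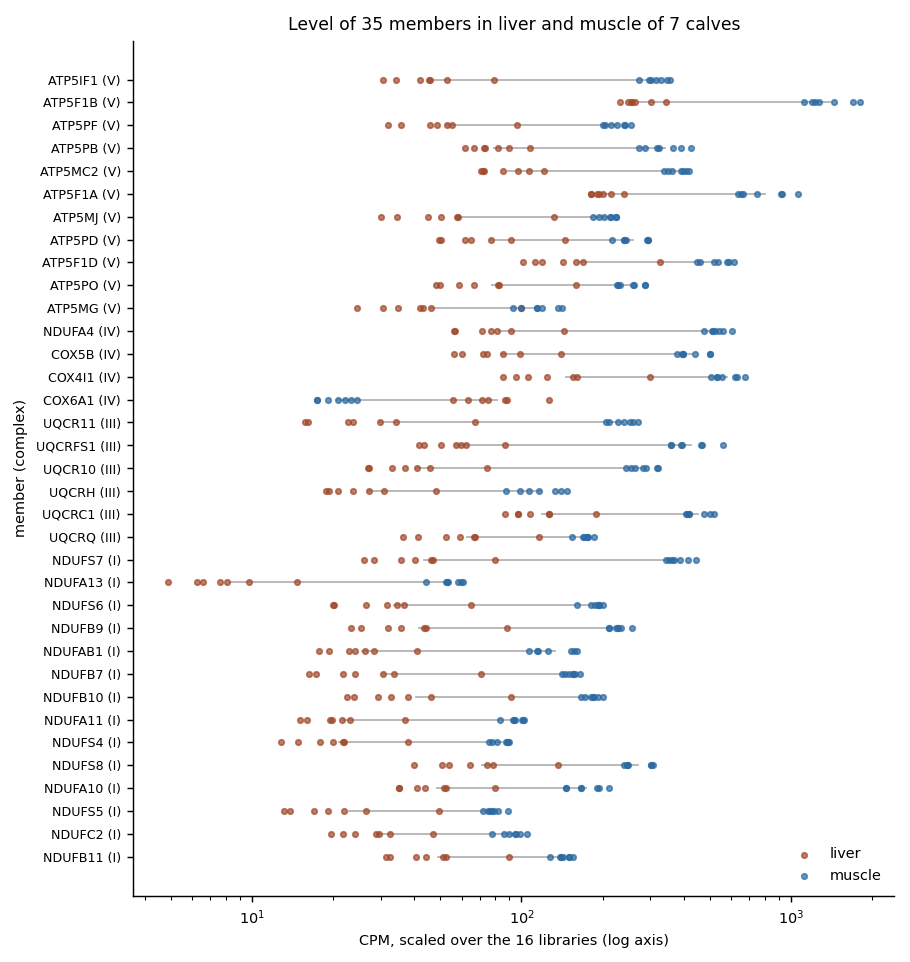
CPM of 35 of the genes in liver (brown) and muscle (blue) on a log axis, scaled over the 16 libraries, with 1 point for each of 7 calves (calf 3213 left out) and a grey line between the organ means. Muscle stands above liver in every row but COX6A1, and in ATP5MG the 2 ranges touch.

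Some rows share sequence with neighbours. In RefSeq (assembly ARS-UCD2.0) the spans of 8 of the 37 genes overlap another gene, among them ATP5PF with GABPA, UQCRH with LRRC41, COX4I1 with EMC8 and NDUFB9 with MTSS1. The libraries carried no strand, so reads of overlapping stretches cannot be told apart. Several of these genes also have processed copies in mammalian genomes, whose share of the reads was not tested.

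Genes around the chain were taken from fixed lists, of which under 80% could be named, through the same lists of the study. Of complex II, which passes electrons from succinate to ubiquinone, SDHC and SDHD were named. SDHC was at 102 ± 9.3 CPM in IVP and 64.8 ± 12.9 CPM in MOET livers, and at 91.0 ± 11.3 and 61.6 ± 12.4 CPM in muscle (SD, n = 4 and n = 3). The log2 fold changes were 0.65 (FDR 0.125) and 0.55 (FDR 0.11), so that unlike most genes of complex I its fitted effects were close in size. Of 13 named assembly factors, 10 had the higher and 3 the lower fitted level in IVP liver, 6 and 1 of them with an unadjusted p under 0.05, beside 14.8% of all genes higher and 2137 of 14290 lower. In muscle 7 were higher and 6 lower, 1 and 3 of them with such a p, beside 11.4% and 8.43% of all genes. None had an FDR under 0.05 in either organ. Between the organs 5 of them passed an FDR under 0.05 in the fit with 1 age slope, as did 23.1% of all genes: UQCC2, of complex III assembly, by -1.77, PET100 and COX20, of complex IV, by -1.36 and -0.60, ACAD9, of complex I, by -0.74, and NDUFAF7, of complex I, by 0.74 in the other direction. With an age slope for each organ ACAD9 was at an FDR of 0.053 and the other 4 still passed. Named genes outside the 37 were selected in the same way. With 1 age slope, 798 of 3740 such genes passed with the higher and 917 with the lower effect in muscle. With an unadjusted p under 0.05, 1103 of 3634 were higher and 972 lower in IVP liver. In muscle 581 of 3342 were higher and 420 lower. None of the 13 subunits encoded in mitochondrial DNA and not CYCS, the gene of cytochrome c, could be named.

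Of 8 named regulators of mitochondrial biogenesis, 7 were tested in liver, and 6 of them had the lower fitted level in IVP, 5 with an unadjusted p under 0.05, beside 2137 of 14290 genes in all. In muscle 7 of the 8 had the higher fitted level, 2 with such a p, beside 11.4% of all genes. TFAM, which packages and transcribes mitochondrial DNA, was at 3.31 ± 1.04 CPM in IVP and 6.57 ± 0.59 CPM in MOET livers (SD, n = 4 and n = 3), a log2 fold change of -0.97 (FDR 0.125). In muscle it was at 4.06 ± 0.36 and 3.05 ± 0.39 CPM, a log2 fold change of 0.41 (FDR 0.196). PPARA, a receptor that drives fatty acid oxidation, had -0.99 in liver and 0.63 in muscle, and GABPA, a factor that binds promoters of respiratory chain genes, -0.51 and 0.22. The difference between the organs passed an FDR under 0.05 for these 3, as it did with the higher effect in muscle for 10.9% of all genes, at 1.34 for TFAM, 1.62 for PPARA and 0.69 for GABPA, and also with an age slope for each organ, with FDR of 0.031, 0.025 and 0.037. The coactivator PPARGC1A had higher fitted levels in both, at 0.43 and 0.48 (FDR 0.236 and 0.296). These names, too, were chosen by the study on the same libraries. Of 3740 named genes outside the 37, 798 passed with the higher effect in muscle in the fit with 1 age slope. With an unadjusted p under 0.05, 972 of 3634 were lower in IVP liver and 581 of 3342 higher in IVP muscle.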

How the data were processed

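RNA was sequenced by the study as non-stranded, polyA-selected paired-end libraries. Per the labels and the study's methods, the authors filtered reads with SOAPnuke, aligned them to bosTau9 with STAR 2.7, counted them per Ensembl gene with HTSeq and removed age effects by means of sva, and the deposited values are therefore treated as estimated counts, all of them whole numbers. No coordinates or sequences are printed, since no annotation of that build was used here. The genes, lists and tests were chosen with earlier results of these data known, and the authors' own comparison columns were used for names only.

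Genes were filtered with filterByExpr, scaled by TMM and tested with edgeR 4.0.16 (quasi-likelihood, R 4.3.3) on the whole table, with age as a covariate and Benjamini-Hochberg adjustment (FDR, threshold 0.05). IVP was compared with MOET in each organ over 8 libraries, and 1 model over 16 libraries gave the difference between organs and muscle against liver. DESeq2 1.42.0 was an alternative. Differences of groups are log2 fold changes with SE, taken as the fold change divided by the square root of edgeR's F statistic, and spread is SD. On simulated counts with 2-fold changes the 8-library fits recovered 53.3% of changed genes in liver and 76.7% in muscle, and the 16-library fit 32.2% of differences between organs and 86.5% of organ changes. Both organs came from the same calves, which pairs them by design; deviations from group means correlated between a calf's organs from -0.13 to 0.28 over 12007 genes.

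Named in full, for each complex, were the genes with the largest difference in liver, in muscle and between organs, the largest muscle to liver ratio and the highest CPM, those with an FDR under 0.05 (for the difference between organs, by that difference alone) and those named only through muscle. Genes given values outside that rule (NDUFA13, NDUFA10, ATP5PB, NDUFS8, ATP5MG and COX6A1) were chosen after their values were seen. The values of 1 gene are not reported here; it is counted in the totals and left out of the figures.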

Additional observations from a re-analysis of the deposited data

Results flagged for a closer look

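In the 4 IVP calves, 1 calf lay far from the other 3 for 10 of 72 combinations of gene and organ, by a gap that was at least 0.831 of the group's whole range on the log2 CPM scale. Chance flags about 1 in 20 groups, and these genes are not independent of each other. In liver the calf was 5841, the highest, for NDUFS4 (0.856 of the range), ATP5MG (0.893) and ATP5MJ (0.848). In muscle it was calf 3209, the lowest, for NDUFAB1 (0.933), NDUFS6 (0.831), NDUFS8 (0.956), ATP5F1D (0.900), ATP5MC2 (0.912), ATP5MJ (0.843) and ATP5PD (0.839).

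The difference of the IVP effect, muscle minus liver, passed an edgeR FDR under 0.05 for 13 genes with an age slope common to both organs, and for none with a slope for each organ. With the common slope 1861 of all 15237 genes passed with the lower effect in muscle, and 917 of the 3740 other genes with a name. On the log2 scale the difference was -0.69 for NDUFA11, -0.99 for NDUFB10, -0.87 for NDUFB11, -1.24 for NDUFB7, -0.93 for NDUFB9, -0.66 for NDUFC2, -0.78 for NDUFS4, -1.12 for NDUFS5 and -0.97 for NDUFS6 of complex I. It was -1.06 for UQCR11 and -0.83 for UQCRQ of complex III, and -0.49 for ATP5MC2 and -1.04 for ATP5MJ of ATP synthase.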

How the results depend on the processing

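The median of the genes kept its direction in all 4 comparisons under every fit run. In liver the number with an FDR under 0.05, 0 in edgeR with age, was 30 without age, 13 and 33 in DESeq2 with and without age, and 0 to 27 with 1 calf left out, 27 without calf 3213 and 19 without calf 5841; the median was 0.36 between full siblings. Without calf 3213 and age it was 0 in both organs. In muscle it was 4 without age, 1 and 8 in DESeq2 with and without age, and 0 to 2 with 1 calf left out, 2 without calf 3209. For the difference between organs, 13 at first, it was 0 with an age slope for each organ, 0 between full siblings and 0 among calves of donor A (an alternative chosen after seeing the data), 3 without calf 3213 and age, 4 with library totals and 0 to 20 with 1 calf left out: 20 without calf 3208, 8 without calf 3213, 6 without calf 3209 or 3218, 1 without calf 5932 and 0 without calf 3217. Genes with IVP above MOET in muscle, 6 at first, numbered 3 with library totals and 6 to 24 with 1 calf left out, 24 without calf 3209. For muscle against liver 36 genes passed in every fit, with a median of 1.46 under library totals. Counting calf 3213 as a separate calf, also chosen after seeing the data, gave UQCRC1 in liver an exact permutation p of 0.0286. With the calf as a replicate block, 14 genes passed for the difference between organs and 36 for muscle against liver against 13 and 36 without it; NDUFA13 (FDR 0.047) and NDUFS7 (FDR 0.037) passed only with it and ATP5MC2 only without it (FDR 0.059 with it), and it changed no other call. Within 1 organ no block is possible. Over all genes, calls numbered 5 at first in liver and 1 to 4657 over the alternatives, 60 and 6 to 1619 in muscle, and 3521 and 0 to 4306 for the difference between organs. The causes of these changes were not tested. Groups of 3 and 4 calves, parents that differ between them and names taken from the study's own lists limit all comparisons of embryo origin.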
